A study of Homo sapiens with 6 samples.

Results

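The human mitochondrial genome is a small circle of DNA that encodes subunits of the respiratory chain and of the ATP synthase, together with the ribosomal and transfer RNAs needed to translate them. Its members here were all rows of the deposited gene table that lie on chromosome MT. There were 36 such genes among the 28847 genes listed: 13 protein-coding genes, 2 rRNA genes and 21 tRNA genes. The remaining tRNA gene of the annotation, MT-TS2, was not analysed here.

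RNA sequencing libraries were compared between 2 groups of 3 libraries each. The control group was labelled as THP-1, a human leukaemia line of monocytic origin that is often used as a macrophage model, with no further treatment named. The other group was labelled as THP-1 with RBP4, and the series describes recombinant human RBP4, a retinol carrier protein of the blood, given to a model of unpolarized (M0) macrophages. Neither a dose nor a time was given, nor how the model was prepared. The labels do not say whether the 3 libraries of a group came from separate cultures, so p-values measure only the spread between these libraries.

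The labelled cell type was checked against marker genes. Of 22 monocyte and macrophage markers, 20 were in the table and 4 reached a depth-scaled level of 10 CPM in all 6 libraries. The monocyte surface receptor CD14 averaged 0.0858 CPM in control and was listed at 0 in all RBP4 libraries, the macrophage marker CD68 averaged 0.0213 and 0.0821 CPM, and the receptor CSF1R 0.129 and 0.143 CPM. The most abundant members of the list were the Fc receptor FCGR2A at 105 CPM in control and 102 CPM with RBP4, the myeloid surface protein CD33 at 52.7 and 47.0 CPM, and the transcription factor SPI1 at 39.2 and 46.5 CPM. Of the erythroid markers, 16 of 20 reached 10 CPM in all libraries, with the erythroid transcription factor GATA1 at 195 CPM in control and 209 CPM with RBP4. Defining markers of the labelled cell type were thus near 0, and the groups are called by their labels. Summed marker levels also moved with the group: the erythroid list summed to 2734 to 2754 CPM in control and 2431 to 2506 CPM with RBP4, but without the transferrin receptor TFRC (901 and 483 CPM) to 1829 to 1861 and 1959 to 2006 CPM, the opposite direction. The monocyte and macrophage list summed to 231 to 236 and 240.3 to 252 CPM, and a fibroblast and epithelial list (7 of 13 genes listed, 3 at 10 CPM or more) to 466 to 478 and 403 to 424 CPM. A list of T, NK and B cell markers, 8 of 10 of them in the table, had 0 genes at 10 CPM in all libraries and summed to 9.76 to 13.7 and 10.8 to 11.1 CPM. The part of these differences in the results below was not tested.

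Depth was similar in all libraries, with 15202000 to 16149118 recovered reads in control and 15994483 to 16420517 with RBP4. Of these, 926755 to 953416 and 1222876 to 1263210 reads fell on chromosome MT. The number of genes above 0 was 23701 to 23996 in control and 24620 to 24727 with RBP4. The values below are normalized reads, that is, reads of a gene divided by 1 size factor per library. A count of 0 reads allows a level of up to 3 reads, which equals 2.83 to 3.21 normalized reads, and this floor covers counting error only.

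Mitochondrial DNA is transcribed into long precursors that cover most of each strand. The tRNAs lie between the other genes like punctuation, and their excision releases the messages and rRNAs. Nearly all messages are read from the same strand, and MT-ND6, a subunit of complex I, is the exception. Most mitochondrial messages then receive a short poly(A) tail, which for several of them also completes the stop codon. Because the libraries were made from RNA captured on poly-T beads, levels depend on tails or internal runs of A as well as on abundance. The preferred library fragments were longer than any tRNA gene and longer than MT-ATP8, so reads assigned to these short genes may come from longer RNAs that contain them. Whether they did was not tested.

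The last 30 bases of 6 protein-coding genes, as annotated, are shown because they give the 4 ways in which these coding sequences end. Where the RNA itself ends was not examined. The bases were read 5′ to 3′ along the sense strand from the GENCODE 29 transcripts (GRCh38). The capitals mark the encoded stop codon or the part of it that the gene encodes.
MT-ND2: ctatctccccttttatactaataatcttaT
MT-ND1: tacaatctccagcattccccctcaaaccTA
MT-CO2: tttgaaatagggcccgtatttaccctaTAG
MT-ND5: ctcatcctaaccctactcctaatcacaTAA
MT-CO1: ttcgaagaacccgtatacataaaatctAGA
MT-ND6: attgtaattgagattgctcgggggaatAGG

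MT-ND2 encodes only the T of its stop codon, as do 4 other messages (MT-CO3, MT-ND3, MT-ND4 and MT-CYB), and MT-ND1 encodes TA. MT-CO2 and MT-ND5 encode a complete TAG or TAA, as do MT-ATP8, MT-ATP6 and MT-ND4L. The coding sequences of MT-CO1 and MT-ND6 end in AGA and AGG. MT-ND6 also differs from the other 12 messages in composition, since it holds more G than C, whereas the other 12 hold 29.5 to 36.0% C and 6.28 to 16.2% G.

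A second set shows the bases shared by the overlapping genes MT-ATP8 and MT-ATP6, which encode subunits of the ATP synthase, and 2 tRNA genes of opposite strands. In the overlap, the capitals mark the start codon of MT-ATP6 and the stop codon of MT-ATP8. MT-TT encodes the threonine tRNA and lies on the plus strand of the reference, and MT-TC encodes the cysteine tRNA and lies on the minus strand.
MT-ATP8 and MT-ATP6: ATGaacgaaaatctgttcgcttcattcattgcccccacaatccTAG
MT-TT: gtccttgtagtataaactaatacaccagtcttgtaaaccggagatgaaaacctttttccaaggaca
MT-TC: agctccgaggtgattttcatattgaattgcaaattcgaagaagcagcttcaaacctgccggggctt

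The first comparison asked how much of each library was mitochondrial RNA, and of which kind. Messages of the 13 protein-coding genes made up 4.22, 4.11 and 4.32% of all reads in control libraries 1, 2 and 3 and 5.48, 5.53 and 5.42% in the RBP4 libraries. The 2 rRNA genes made up 1.69, 1.76 and 1.75% in control and 2.13, 2.14 and 2.13% with RBP4. The tRNA genes contributed 0.0275, 0.0294 and 0.0282% in control and 0.0334, 0.0321 and 0.0334% with RBP4. In each class all 3 RBP4 libraries were above all 3 controls. Summed over chromosome MT, the share was 5.98% ± 0.103 (SD, n = 3) in control and 7.64% ± 0.0553 (SD, n = 3) with RBP4, a difference of 1.66 percentage points, given as a description without a test. In bulk RNA, a different number of mitochondria or of mitochondrial genomes per cell, a different level per genome and a different mix of cells cannot be told apart.

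**Figure D1:**
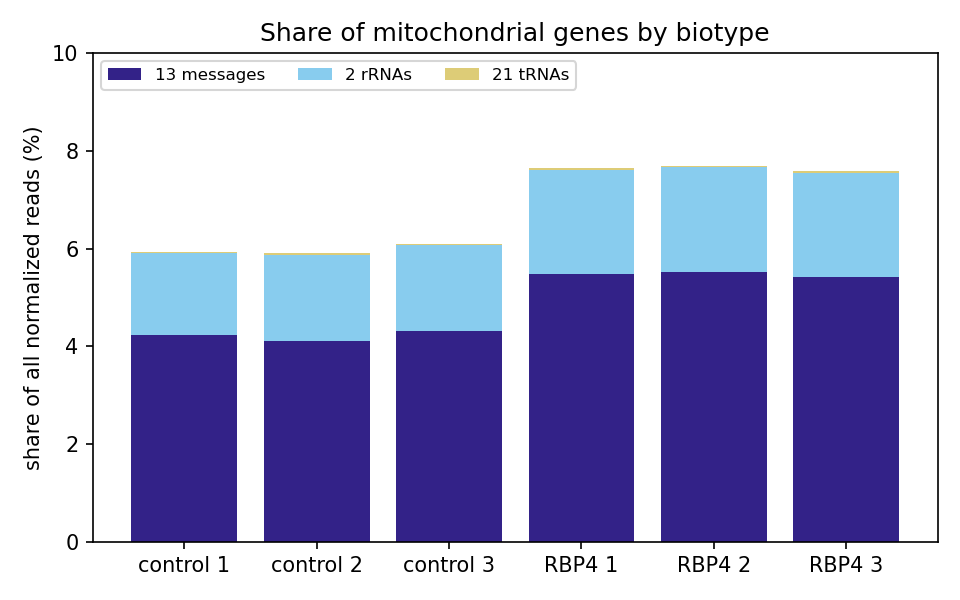
Stacked bars, 1 per library, of the share of reads (in percent) on messages, rRNA genes and tRNA genes of chromosome MT, for 3 control and 3 RBP4 libraries. All 3 RBP4 libraries lie above all 3 controls for each class: messages at 5.42 to 5.53% against 4.11 to 4.32%, rRNA at 2.13 to 2.14% against 1.69 to 1.76%, and tRNA genes at 0.0321 to 0.0334% against 0.0275 to 0.0294%.

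Each gene was then tested with limma on log2(value + 1), and adjusted p-values (Benjamini-Hochberg) were taken over all 15676 genes tested. The filter, 10 or more normalized reads in 3 or more libraries, was passed by 25 of the 36 mitochondrial genes: all 13 messages, both rRNAs and 10 of 21 tRNAs. Past an adjusted p of 0.05, 15 were raised and 7 lowered with RBP4, and 3 did not pass. The lowered count includes MT-TT, which passed the filter only through its control libraries, so its call has no weight. Over all genes tested, 24.5% were raised and 26.1% lowered, 50.6% in either direction. With libraries scaled to an equal total, 16 mitochondrial genes were raised and 5 lowered, beside 30.8 and 19.1% of all genes (49.8% in either direction). The authors' deposited table gave adjusted p-values under 0.05 with a positive log2 fold change for 14 mitochondrial genes and with a negative one for 5. The 5 again include MT-TT, whose call has no weight. The share of all genes under 0.05 was not counted for the authors' comparison, so these counts have no background beside them.

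Complex I, the NADH dehydrogenase that passes electrons from NADH into the respiratory chain, takes 7 of its subunits from mitochondrial DNA. Of these messages 5 were raised and 2 lowered, beside 24.5% raised and 26.1% lowered of all genes tested. The median log2 change of the 7 messages was 0.22. MT-ND2 (ENSG00000198763, chromosome MT 4470 to 5511) had 41989, 42376 and 42419 normalized reads in control and 64002, 65102 and 63438 with RBP4. The RBP4 libraries all lay far above the controls, whose values were nearly equal to each other. The log2 change of MT-ND2 was 0.60 (SE 0.017, adjusted p = 1.4e-41), or 1.52-fold.

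MT-ND1 (ENSG00000198888, 3307 to 4262) had 18075, 16925 and 18349 normalized reads in control and 24862, 26619 and 24513 with RBP4, a log2 change of 0.51 (SE 0.037, adjusted p = 1.1e-06). MT-ND3 (ENSG00000198840, 10059 to 10404) had 6813, 7361 and 6894 in control and 10029.8, 10361 and 11268 with RBP4, a log2 change of 0.59 (SE 0.042, adjusted p = 1.1e-07). Neither gene's groups overlapped, and both were raised in every RBP4 library. These subunits, like MT-ND2, belong to the membrane arm through which complex I moves protons.

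MT-ND4 and MT-ND4L also encode membrane subunits, from overlapping reading frames on 1 message. MT-ND4 (ENSG00000198886, 10760 to 12137) had 149229, 142949 and 156577 normalized reads in control and 176256, 175661 and 170545 with RBP4, a log2 change of 0.22 (SE 0.038, adjusted p = 6.7e-03). MT-ND4L (ENSG00000212907, 10470 to 10766) had 20084, 21427 and 20719 in control and 23316, 24532 and 24294 with RBP4, a log2 change of 0.21 (SE 0.022, adjusted p = 4.5e-12). Both were 1.16-fold higher with RBP4, without overlap of the groups.

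The other 2 complex I messages went the opposite way with the authors' size factors. MT-ND5 (ENSG00000198786, 12337 to 14148), the largest membrane subunit, had 37227, 36209 and 36484 normalized reads in control and 33963, 34267 and 34845 with RBP4. All RBP4 values were below all controls, and the log2 change was -0.09 (SE 0.019, adjusted p = 2.8e-05). MT-ND6 (ENSG00000198695, 14149 to 14673, minus strand) had 9014, 8933 and 9626 in control and 8216, 8646 and 9093 with RBP4. Its groups overlapped, with RBP4 library 3 above control libraries 1 and 2, and the log2 change was -0.09 (SE 0.032, adjusted p = 0.024).

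Both lowered calls depended on the scaling. With libraries scaled to an equal total the log2 changes were -0.02 for MT-ND5 (adjusted p = 0.28) and -0.02 for MT-ND6 (adjusted p = 0.63), and with an equal total outside chromosome MT they were 0.0013 and 0.0064. The MT-ND6 call was also lost with DESeq2 on the recovered reads (adjusted p = 0.065) and without control library 3 (0.14), RBP4 library 1 (0.19) or RBP4 library 2 (0.071) in limma. In the authors' deposited comparison MT-ND6 had a log2 fold change of -0.087 and an adjusted p of 0.044, under the threshold. The 2 genes are neighbours that face each other: MT-ND6 lies directly after MT-ND5 on the other strand. The library kit does not mark strand, so reads of MT-ND6 and of antisense RNA over it cannot be told apart.

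Complex III, which hands electrons from ubiquinol to cytochrome c, has a single mitochondrial message. MT-CYB (ENSG00000198727, 14747 to 15887), its cytochrome b subunit, had 17001, 17140.3 and 17086 normalized reads in control and 22635, 23557 and 22416 with RBP4. The groups did not overlap, and the log2 change was 0.42 (SE 0.021, adjusted p = 3.2e-27). MT-CYB is the next message on the plus strand after MT-ND5, and its raised level set it apart from both MT-ND5 and MT-ND6.

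Complex IV, cytochrome c oxidase, reduces oxygen to water, and its 3 core subunits come from mitochondrial DNA. All 3 messages were raised, beside 24.5% of all genes tested, by log2 changes of 0.18 to 0.54. MT-CO1 (ENSG00000198804, 5904 to 7445), the subunit that holds the oxygen-reducing centre, had 189582, 182496 and 190884 normalized reads in control and 213727, 215547 and 210025 with RBP4, a log2 change of 0.18 (SE 0.015, adjusted p = 2.7e-16). MT-CO2 (ENSG00000198712, 7586 to 8269), which takes up electrons from cytochrome c, had 74798, 73122 and 78529 in control and 109556, 111392 and 108610.1 with RBP4, a log2 change of 0.54 (SE 0.019, adjusted p = 2.0e-22). MT-CO3 (ENSG00000198938, 9207 to 9990) had 77692, 78486 and 80019 in control and 96829, 99307 and 97910.1 with RBP4, a log2 change of 0.32 (SE 0.016, adjusted p = 2.3e-27). No groups overlapped, and the 3 subunits of the same enzyme rose by different amounts, 1.14-fold, 1.46-fold and 1.24-fold.

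The ATP synthase takes MT-ATP6, part of its proton channel, and the small subunit MT-ATP8 from mitochondrial DNA. MT-ATP6 (ENSG00000198899, 8527 to 9207) had 43253, 40689 and 44864 normalized reads in control and 63753, 61380.3 and 63413 with RBP4, a log2 change of 0.55 (SE 0.035, adjusted p = 2.8e-06). MT-ATP8 (ENSG00000228253, 8366 to 8572) had 190.4, 211 and 177 in control and 358, 364 and 421 with RBP4, a log2 change of 0.98 (SE 0.091, adjusted p = 1.1e-14). Both were higher in every RBP4 library than in any control, and MT-ATP8, at 1.97-fold, had the largest log2 change of the 13 messages. The reads assigned to it were far below those of the other 12 messages: per kilobase of gene it averaged 931 normalized reads in control, against 63048 for MT-ATP6. Because MT-ATP6 lies on the same message, the MT-ATP8 value cannot be read as the level of a separate message. Only 161 bases of MT-ATP8 lie outside its overlap with MT-ATP6, so its value and its log2 change are uncertain.

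**Figure D2:**
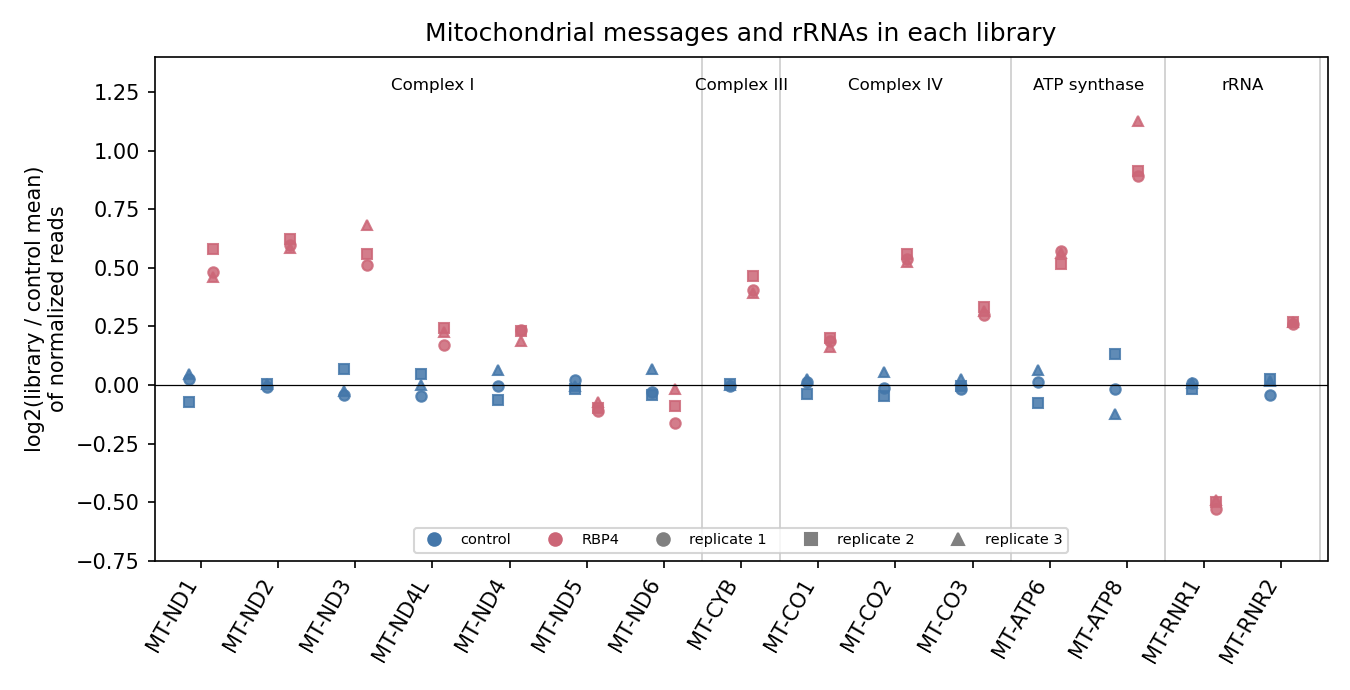
Normalized reads of the 13 messages and 2 rRNAs of chromosome MT in each library, as the log2 ratio to the control mean, by complex; colour marks the group and symbol shape the replicate. Among messages, only the groups of MT-ND6 overlap, and only MT-ND5 and MT-ND6 have a lower mean with RBP4, by log2 changes of -0.09 each that were at 0.0013 and 0.0064 with libraries scaled to an equal total outside chromosome MT.

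Of the 13 messages, 11 were higher in all RBP4 libraries than in any control and 1 was lower, beside 27.3% and 28.9% of all genes tested. The order of levels per kilobase in control ran from MT-CO1 (121695 normalized reads), MT-CO2 (110356), MT-ND4 (108552) and MT-CO3 (100424) down to MT-CYB (14966) and MT-ATP8. With RBP4, MT-CO2 stood first at 160603, above MT-CO1 at 138197.

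The messages were then compared with each other, in a second fit in which each library was scaled to the same sum over the 13 mitochondrial messages. A log2 change in this fit is relative to that sum, to which the gene itself contributes. Under this scaling, 7 messages were raised, 5 were lowered and 1 did not pass. Over all genes tested, 8.98% were raised and 56.5% lowered, 65.5% in either direction, and their median log2 change was -0.31, against -0.0021 with the authors' size factors.

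MT-ATP8 was raised by 0.67 (adjusted p = 1.3e-09), MT-ND2 by 0.29 (6.9e-18), MT-ND3 by 0.28 (1.7e-05), MT-ATP6 by 0.24 (1.2e-13), MT-CO2 by 0.23 (8.0e-15), MT-ND1 by 0.20 (5.1e-09) and MT-CYB by 0.11 (6.0e-04) on the log2 scale, each by limma with Benjamini-Hochberg adjustment. In the same fit MT-ND5 and MT-ND6 both fell by 0.40 (adjusted p = 7.3e-24 and 8.2e-18). MT-CO1 fell by 0.12 (4.1e-07), and MT-ND4 and MT-ND4L each fell by 0.09 (4.3e-04 and 5.1e-03). MT-CO3 had a log2 change of 0.01 (SE 0.024, adjusted p = 0.79) and did not pass. The lowered call of MT-ND4L was lost without control library 2 or RBP4 library 1. Complex I thus held 3 messages raised and 4 lowered relative to the sum, complex IV 1 of each and 1 that did not pass, and both ATP synthase messages were raised.

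**Figure D3:**
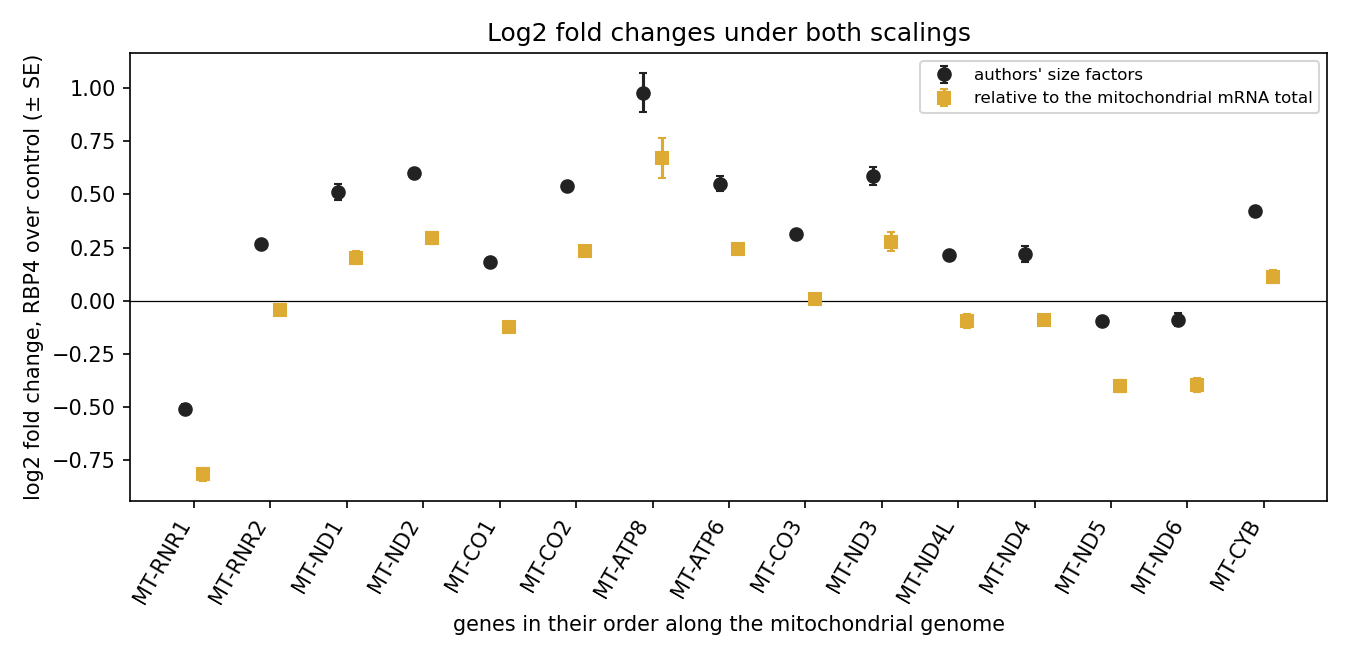
Log2 change (RBP4 minus control) of each message and rRNA, with the standard error, under the authors' size factors and after scaling each library to an equal sum over the 13 mitochondrial messages. MT-ATP8 is highest under both (0.98 and 0.67), and MT-ND5 and MT-ND6 move from -0.09 to -0.40, while with an equal total outside chromosome MT they were at 0.0013 and 0.0064.

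Shares of the mitochondrial message pool describe the same shift by complex. Complex I messages made up 41.2, 41.3 and 41.4% of the pool in the control libraries and 40.2, 40.3 and 40.2% in the RBP4 libraries. Those of the ATP synthase went from 6.34, 6.12 and 6.41% to 7.56, 7.21 and 7.59%. MT-CYB, for complex III, went from 2.48, 2.56 and 2.43% to 2.67, 2.75 and 2.67%. The complex IV share was 49.9, 49.99 and 49.7% in control and 49.6, 49.8 and 49.5% with RBP4, and these ranges overlapped. Within that share, MT-CO1 went from a mean of 27.4 to 25.1% and MT-CO2 from 11.01 to 12.9%.

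Ratios within a library do not depend on the scaling. The ratio of MT-CO2 to MT-CO1 was 0.395, 0.401 and 0.411 in control and 0.513, 0.517 and 0.517 with RBP4. The ratio of MT-ND2 to MT-ND5 was 1.13, 1.17 and 1.16 in control and 1.88, 1.90 and 1.82 with RBP4. Across the MT-ND5 to MT-CYB boundary, the ratio of MT-CYB to MT-ND5 was 0.457, 0.473 and 0.468 in control and 0.666, 0.687 and 0.643 with RBP4. For each of these ratios the RBP4 libraries lay above all controls, so the members of a pair changed unequally whatever size factor is used.

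Messages overlap in 3 pairs of neighbours. MT-ATP8 and MT-ATP6 share 46 bases, and the ratio of MT-ATP6 to MT-ATP8 was 227, 193 and 254 in control and 178, 169 and 151 with RBP4, without overlap. MT-ATP6 and MT-CO3 share 1 base, and the ratio of MT-ATP6 to MT-CO3 was 0.557, 0.518 and 0.561 in control and 0.658, 0.618 and 0.648 with RBP4, also without overlap. MT-ND4L and MT-ND4 share 7 bases, and the ratio of MT-ND4 to MT-ND4L was 7.43, 6.67 and 7.56 in control and 7.56, 7.16 and 7.02 with RBP4, with overlapping ranges. How the authors' counter assigned reads in the shared bases is not given in the sources used here, and only 161 bases of MT-ATP8 lie outside its overlap, so its value is uncertain.

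Sequence features of the messages were set beside their log2 changes as a description. The 6 messages with an incomplete stop codon, such as MT-ND2 and MT-ND1 printed above, had log2 changes of 0.22 to 0.60 with a median of 0.47. The other 7 end in a full codon, 5 in TAA or TAG and 2 (MT-CO1 and MT-ND6) in AGA or AGG. Log2 changes of these 7 ranged from -0.09 to 0.98 with a median of 0.21, so the ranges overlapped. The 3 longest genes, of 1300 bases or more (MT-CO1, MT-ND4 and MT-ND5), had changes of -0.09 to 0.22, and the 10 shorter ones of -0.09 to 0.98. Across the 13 messages, which share libraries and precursors and are not independent, the correlation of log2 change with gene length was r = -0.51 (rho = -0.46). Without MT-ND5 and MT-CO1 (n = 11) it was r = -0.23 (rho = -0.17), and without MT-ATP8 and MT-ND6 (n = 11) r = -0.62 (rho = -0.50). The size of the relation thus depended on the genes included. For order along the genome the correlation was r = -0.48 (rho = -0.51), and r = -0.49 (rho = -0.64) without MT-ND5 and MT-CO1. Across the 13 messages, r was -0.44 for log2 level per kilobase in control, -0.34 for GC content and 0.05 for the longest run of A.

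The 2 ribosomal RNAs moved in opposite directions. MT-RNR1 (ENSG00000211459, 648 to 1601), the RNA of the small subunit of the mitochondrial ribosome, had 16768, 16463 and 16766 normalized reads in control and 11548, 11776 and 11870.3 with RBP4. MT-RNR2 (ENSG00000210082, 1671 to 3229), that of the large subunit, had 256886, 269746 and 268391 in control and 317854, 319289.9 and 319501 with RBP4. Neither gene's groups overlapped. MT-RNR1 fell by 0.51 on the log2 scale (SE 0.023, adjusted p = 2.2e-30), or 1.42-fold, and MT-RNR2 rose by 0.27 (SE 0.014, adjusted p = 7.8e-23), or 1.20-fold.

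The directions of both rRNAs held with equal totals, at log2 changes of -0.44 and 0.34. Relative to the mitochondrial messages, MT-RNR1 fell by 0.81 (adjusted p = 2.8e-41) and MT-RNR2 had a log2 change of -0.04 (adjusted p = 0.094), which passed the threshold as lowered without control library 1 or control library 3. The ratio of MT-RNR2 to MT-RNR1 was 15.3, 16.4 and 16.0 in control and 27.5, 27.1 and 26.9 with RBP4. Both rRNAs are cut from the same precursor and sit in the ribosome in equal number, but per kilobase MT-RNR2 averaged 169985 normalized reads and MT-RNR1 17469 in the control libraries. Reads assigned to them in these poly-T libraries were thus far from equal, and the shift in their ratio is a change in assigned reads. The part of rRNA abundance, poly-T capture or counting in it was not tested.

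The 21 tRNA genes had low values. Of these, 12 were above 0 in all libraries, and 11 did not pass the filter, with group means under 10 normalized reads in both groups. Past the threshold, 3 of the 10 tested were raised, 4 were lowered and 3 did not pass, beside 24.5% raised and 26.1% lowered of all genes tested. The 4 include MT-TT, whose call has no weight, and the counts do not describe all tRNA genes.

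By strand, the plus strand of the reference carries 13 of the tRNA genes, of which 6 were tested. Without MT-TT, 0 of the other 5 were raised and 3 lowered, beside 24.5% raised and 26.1% lowered of all genes tested. The log2 changes of these 5 were -1.13 to -0.23 with a median of -0.34. The minus strand carries 8, and of the 4 tested 3 were raised and 0 lowered, beside the same shares of all genes. The log2 changes of these 4 were 0.13 to 0.26. The genes too low to test were not divided in this way: 4 of 7 on the plus strand and 2 of 4 on the minus strand had a higher mean with RBP4. Their sums overlapped between groups on both strands, at 14.1 to 18.6 normalized reads in control and 10.6 to 16.1 with RBP4 on the plus strand and 6.42 to 17.1 and 8.50 to 14.5 on the minus strand. The difference between strands was not tested. Summed over all 13 plus-strand genes, the values were 396, 352 and 390 normalized reads in control and 259, 272 and 279 with RBP4. Summed over all 8 minus-strand genes, they were 4063, 4424 and 4196 in control and 4906, 4700 and 4902 with RBP4. Neither of these sums, which the tested genes dominate, overlapped between groups. Reads carry no strand here, so minus-strand tRNA genes, which face the long plus-strand precursor, cannot be told apart from antisense RNA over them.

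On the plus strand, MT-TV (valine, 1602 to 1670), which lies between the 2 rRNA genes, had 42.4, 21.1 and 35.3 normalized reads in control and 14.5, 15.1 and 12.4 with RBP4. Its log2 change was -1.13 (SE 0.303, adjusted p = 1.3e-03), and the groups did not overlap. MT-TT (threonine, 15888 to 15953), directly after MT-CYB, had 19.7, 25.2 and 20.3 in control and 0, 6.61 and 2.86 with RBP4, a log2 change of -2.87. In recovered reads this was 19, 25 and 19 against 0, 7 and 3. It passed the filter only through its control libraries, so no p-value is given for it. The size of the MT-TT change depended on the settings: it was -1.79 with a pseudocount of 5, -2.06 without RBP4 library 1 and -3.52 without RBP4 library 2.

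MT-TL1 (leucine, 3230 to 3304), which follows MT-RNR2, had 187, 175 and 213 normalized reads in control and 140.2, 159 and 155 with RBP4, a log2 change of -0.34 (SE 0.112, adjusted p = 9.7e-03). MT-TH (histidine, 12138 to 12206), which follows MT-ND4, had 34.2, 42.3 and 29.98 in control and 18.4, 18.9 and 24.8 with RBP4, a log2 change of -0.75 (SE 0.266, adjusted p = 0.015). The groups of both genes were separate, but both calls were lost in single settings. MT-TL1 gave an adjusted p of 0.065 with limma on an equal total outside chromosome MT, 0.080 without control library 3 and 0.060 without RBP4 library 1. MT-TH gave 0.058 with DESeq2, 0.089 without control library 2 and 0.054 without RBP4 library 1. MT-TG (glycine) and MT-TR (arginine), with log2 changes of -0.32 and -0.23, did not pass (adjusted p = 0.28 and 0.42).

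On the minus strand, 4 genes had means of 100 or more in both groups. MT-TC (cysteine, 5761 to 5826) had 1657, 1818 and 1711 normalized reads in control and 2141, 2025 and 2062 with RBP4, a log2 change of 0.26 (SE 0.040, adjusted p = 4.8e-08). MT-TP (proline, 15956 to 16023) had 1425, 1564 and 1458 in control and 1638, 1608 and 1632 with RBP4, a log2 change of 0.13 (SE 0.042, adjusted p = 5.7e-03). MT-TN (asparagine, 5657 to 5729) had 747, 808 and 776 in control and 849.7, 838 and 909 with RBP4, a log2 change of 0.16 (SE 0.054, adjusted p = 0.013). These 3 were raised without overlap of the groups, and the MT-TN call was lost in limma when either control library 1 (adjusted p = 0.066) or RBP4 library 3 (0.10) was left out.

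MT-TY (tyrosine, 5826 to 5891), which shares 1 base with MT-TC, had 225, 217 and 244 normalized reads in control and 262, 220.0 and 290.0 with RBP4. Its groups overlapped, and its log2 change of 0.16 did not pass (adjusted p = 0.16), although it passed with equal totals (0.045), with an equal total outside chromosome MT (0.025) and without RBP4 library 2 (0.032). Relative to the mitochondrial messages, 8 of the 10 tested tRNAs, MT-TT among them, were lowered and 0 were raised, beside 56.5% and 8.98% of all genes, and MT-TC (-0.04, adjusted p = 0.41) and MT-TY (-0.14, adjusted p = 0.20) did not pass. The lowered call of MT-TR was lost when any library other than control library 1 was left out, that of MT-TN without control library 2, RBP4 library 1 or RBP4 library 2, and that of MT-TG without control library 1 or RBP4 library 2. Without RBP4 library 2, 5 tRNAs were lowered.

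**Figure D4:**
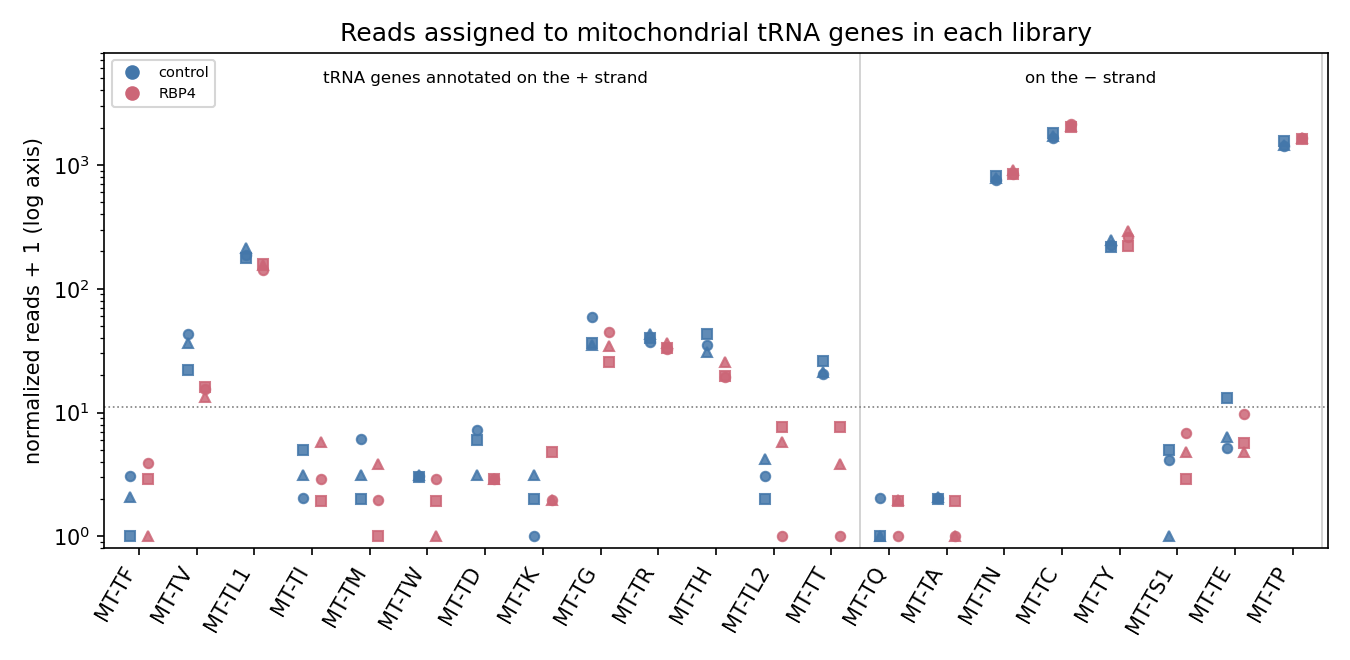
Normalized reads + 1 of the 21 tRNA genes of chromosome MT in each library, on a logarithmic axis, by strand (colour marks the group, shape the replicate); the dotted line marks the filter at 10 normalized reads. On the minus strand MT-TN, MT-TC, MT-TY and MT-TP stand at 100 or more in both groups, and on the plus strand only MT-TL1 does, with all 3 of its RBP4 libraries below its controls.

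The nuclear genome holds many copies of mitochondrial sequence, and reads can be exchanged between near-identical copies. The table listed 79 such genes. Only 5 passed the filter. Of these, 3 were raised, 0 were lowered and 2 did not pass, beside 24.5% raised and 26.1% lowered of all genes tested. The 3 raised copies lie close together on chromosome 1 of GRCh38. MTATP6P1 (633696 to 634376), 98.5% identical to MT-ATP6, had 3813 ± 343 (SD, n = 3) normalized reads in control and 5791 ± 201 (SD, n = 3) with RBP4. MTND2P28 (629640 to 630683), 98.2% identical to MT-ND2, had 2057 ± 46.5 and 3047 ± 78.3. MTCO1P12 (631074 to 632616), 98.6% identical to MT-CO1, had 495 ± 54.9 and 573 ± 38.2.

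The copies moved by nearly the same log2 amounts as their mitochondrial genes: 0.61 for MTATP6P1 (adjusted p = 7.5e-04) beside 0.55, 0.57 for MTND2P28 (1.2e-22) beside 0.60, and 0.21 for MTCO1P12 (8.0e-03) beside 0.18. As a percentage of MT-ATP6, MTATP6P1 was 8.89 ± 0.797 in control and 9.22 ± 0.513 with RBP4, and the other pairs were as stable, at 4.87 ± 0.136 and 4.75 ± 0.184 for MT-ND2 and 0.264 ± 0.0269 and 0.269 ± 0.0207 for MT-CO1 (SD, n = 3). The values of the copies are uncertain for this reason. Adding them to the mitochondrial genes, an alternative chosen after seeing the data, gave log2 changes of 0.60 for MT-ND2, 0.18 for MT-CO1 and 0.56 for MT-ATP6. The next most abundant copies were far lower: MTCO1P47 (14.4 and 10.2 normalized reads), MTND4P12 (11.8 and 7.62) and the untested MTRNR2L8 (9.25 and 4.14).

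Most subunits of the same complexes are encoded in the nucleus. Of 82 listed, 79 were tested: 1 was raised and 63 lowered, and 15 fell short of the threshold. The median log2 change was -0.21. Of all genes tested, 24.5% were raised and 26.1% lowered, with a median of -0.0021. With libraries scaled to equal total, 3 subunits were raised and 53 lowered, beside 30.8 and 19.1% of all genes. The median of all genes moved by 0.068 between these scalings.

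By complex, 25 of 36 nuclear subunits of complex I were lowered (median -0.20), 4 of 4 of complex II (-0.20), 8 of 9 of complex III (-0.20), 11 of 12 of complex IV (-0.22) and 15 of 18 of the ATP synthase (-0.25). Complex II, succinate dehydrogenase, has no mitochondrially encoded subunit, and its flavoprotein SDHA was 1.16-fold lower (adjusted p = 1.4e-08). In the ATP synthase, where both mitochondrial messages rose, ATP5MC1 had 1303 ± 48.4 (SD, n = 3) normalized reads in control and 878 ± 42.6 with RBP4, and ATP5MC3 was 1.39-fold lower (adjusted p = 1.0e-23). Both encode the same ring subunit, which turns against the proton channel formed by MT-ATP6. In complex IV, COX7B was 1.32-fold lower (adjusted p = 1.4e-11) and COX8A 1.25-fold lower (3.2e-10). In complex III, the iron-sulfur subunit UQCRFS1 was 1.27-fold lower (7.1e-11), and in complex I NDUFS5 was 1.28-fold lower (1.1e-13), all in limma with Benjamini-Hochberg adjustment. The single raised nuclear subunit was NDUFV3 of complex I, named after its value was seen. No nuclear subunit (0) was raised without RBP4 library 2, and 2 were without control library 3.

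**Figure D5:**
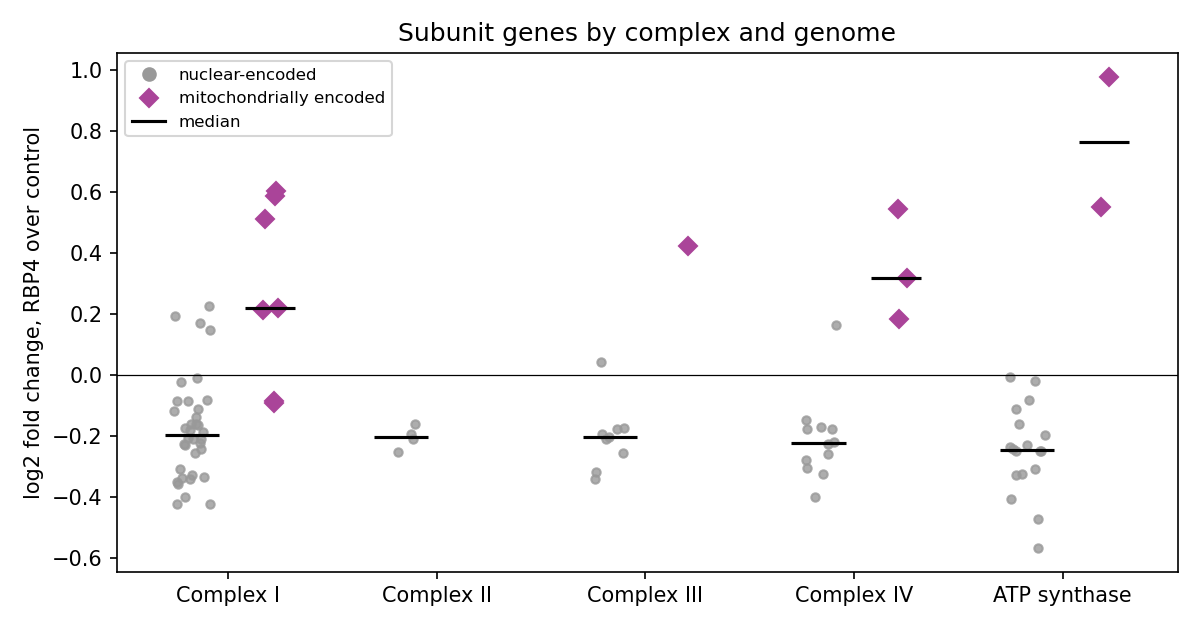
Log2 change (RBP4 minus control) of subunits of the respiratory complexes and the ATP synthase, 1 point per gene with lines at the medians, by complex and by the genome that encodes them. The medians for mitochondrially encoded subunits are 0.22 (complex I), 0.32 (IV) and 0.76 (ATP synthase), and those for nuclear subunits lie between -0.25 and -0.20. Complex III has MT-CYB as its only mitochondrial message, at 0.42, without a median line. The ATP synthase median joins MT-ATP6 (0.55) with MT-ATP8 (0.98), whose value is uncertain. The complex I points at -0.09 are MT-ND5 and MT-ND6, at 0.0013 and 0.0064 with an equal total outside chromosome MT.

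Nuclear genes also supply the machinery that copies, transcribes, processes and translates mitochondrial nucleic acids. Of 88 such genes tested, 10 were raised and 44 lowered, and 34 fell short of the threshold, beside 24.5% raised and 26.1% lowered of all genes. The median log2 change was -0.12. With equal totals, 16 were raised and 31 lowered, beside 30.8 and 19.1% of all genes. With an equal total outside chromosome MT the counts were 20 and 27, and the share of all genes was not counted for that scaling. In the list for transcription and DNA maintenance, 2 of 18 were raised and 11 lowered, beside 24.5 and 26.1% of all genes. TFB2M, the transcription initiation factor that opens the mitochondrial promoter, had 937 ± 19.8 (SD, n = 3) normalized reads in control and 667 ± 12.4 with RBP4 and was 1.404-fold lower (adjusted p = 4.8e-12). SSBP1, the mitochondrial single-stranded DNA binding protein, was 1.31-fold lower (2.0e-14), and POLG, the catalytic subunit of the mitochondrial DNA polymerase, 1.23-fold lower (2.1e-09). LONP1, a protease of the mitochondrial matrix, was 1.15-fold higher (2.6e-10).

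Among genes of RNA processing, modification and decay, 5 of 41 were raised and 22 lowered, beside 24.5 and 26.1% of all genes. TBRG4, a member of the FASTK family of mitochondrial RNA-binding proteins, had 3541 ± 108 (SD, n = 3) normalized reads in control and 2566 ± 90.1 with RBP4 and was 1.38-fold lower (adjusted p = 3.1e-19). FASTK itself, whose mitochondrial form is known for its part in the maturation of the MT-ND6 message, went the other way, from 672 ± 12.5 to 944 ± 15.1, 1.41-fold higher (3.6e-12). NSUN2, an RNA methyltransferase that also acts on mitochondrial tRNAs, was 1.265-fold lower (2.1e-14). PNPT1, the polynucleotide phosphorylase that degrades mitochondrial RNA, was 1.31-fold lower (2.5e-14). MTO1, which modifies mitochondrial tRNAs, was 1.34-fold higher (3.2e-11). These values stand under the authors' size factors. With equal totals, 5 genes of this list were raised and 15 lowered, beside 30.8 and 19.1% of all genes (49.8% in either direction). The count of genes called was thus near the background with equal totals, with more lowered than raised.

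In the list for translation and membrane insertion, 2 of 19 were raised and 7 lowered, and with equal totals 6 were raised and 7 lowered. Of all genes tested, 50.6% were called in either direction and 49.8% with equal totals, so the count of this list under the authors' size factors was near the background. TUFM, the mitochondrial elongation factor Tu, had 7001 ± 271 (SD, n = 3) normalized reads in control and 6029 ± 145 with RBP4 and was 1.16-fold lower (adjusted p = 1.7e-09). LETM1, a protein of the inner membrane, was 1.33-fold lower (9.1e-15). GUF1, a translation factor, was 1.21-fold lower (1.5e-08), and the ribosome recycling factors MRRF and GFM2 were 1.18-fold (2.5e-05) and 1.15-fold lower (1.5e-04). TACO1, known as an activator of MT-CO1 translation, was 1.22-fold higher (2.3e-04). Of 10 nuclear regulators tested, 1 was raised and 4 lowered, and with equal totals 2 and 2, beside 50.6 and 49.8% of all genes called in either direction. GABPA, a transcription factor of nuclear-encoded respiratory genes, was 1.28-fold lower (7.9e-08), YY1 was 1.13-fold lower (1.1e-05) and TFE3 was 1.14-fold higher (1.6e-03). The mitochondrial RNA polymerase POLRMT and the packaging factor TFAM, named after their values were seen, had log2 changes of -0.13 each (adjusted p = 2.1e-03 and 4.1e-03), and neither passed with equal totals (0.15 and 0.20).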

How the data were processed

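Libraries were made from poly-T selected RNA with a NEBNext Ultra kit that does not mark strand, per the labels' protocols. The authors' aligner, counter and genome build: not given in the sources used here. All 36 mitochondrial genes matched GENCODE 29 (GRCh38) by position, strand and name, and all 36 matched its transcript sequences. The authors deposited a normalized signal per gene and library, 3 control and 3 RBP4. The log2 fold changes and p-values of their own comparison were deposited in the same table and are quoted only where named. Each signal was a whole multiple of 1 step per library, as reads divided by a size factor are: 100% of values were whole within 0.01 reads after division by the step.

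The signal, not the recovered reads, was tested: log2(value + 1) for genes at 10 or more in at least 3 libraries, limma 3.58.1 in R 4.3.3 with a trended, robust variance, group as the only term, two-sided, Benjamini-Hochberg adjustment over 15676 genes, threshold 0.05. Fold changes in log2 refer to log2(value + 1), so that changes of low genes can come out too small. This did not hold for MT-TT, with RBP4 library 1 at 0: its log2 change was -2.87, against -2.78 in the authors' comparison. Other folds are ratios of group means. A second fit scaled each library to an equal sum over the 13 mitochondrial messages. Shares of reads were described without a test. The fit was tested on simulated data first.

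On recovered reads, as alternatives, edgeR 4.0.16 called 7921 genes and DESeq2 1.42.0 called 6510. Other alternatives changed the pseudocount, the filter, the scaling and the replicate block, or left out each library. The members and gene lists were chosen with earlier results of these data known. Named were all messages and rRNAs, the tRNAs that passed the filter, of each nuclear list, 1 to 6 genes past the threshold, taken in order of p-value, the 6 most abundant nuclear copies, and the abundant and defining markers. The labels give no meaning to the replicate numbers, and the main fit did not pair the libraries by them.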

Additional observations from a re-analysis of the deposited data

How the results depend on the processing

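The counts of mitochondrial genes raised (15 in all, 11 messages, 1 rRNA, 3 tRNAs) stayed within 1.5 times of these values under every alternative run. Counts of lowered genes moved more. In all, 7 were lowered in the main fit, 4 with a filter of 5 CPM, 4 with an equal total outside chromosome MT, and 4 to 7 when 1 library was left out. Lowered messages numbered 0 with an equal total, 0 with an equal total outside chromosome MT, 1 with DESeq2 and 1 to 2 when a library was left out. Lowered tRNAs numbered 1 with the 5 CPM filter, which tests fewer of them, and 2 to 4 when a library was left out, the lowest without RBP4 library 1. With an equal total outside chromosome MT the log2 changes of MT-ND5 and MT-ND6 reversed to 0.0013 and 0.0064.

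Relative to the mitochondrial messages, leaving out a library gave 1 to 2 lowered rRNAs and 5 to 7 lowered tRNAs, MT-TC ranged from -0.073 to 0.012 and reversed without control library 2, and MT-CO3 ranged from -0.0014 to 0.024 and reversed without control library 1. The share of chromosome MT differed by 1.31 points without its rRNA genes. For nuclear genes of mitochondrial gene expression, an equal total gave 16 raised, beside 30.8% of all genes, and an equal total outside chromosome MT gave 20 raised and 27 lowered. The share of all genes called was not counted for an equal total outside chromosome MT. Raised nuclear subunits numbered 3 with either scaling and 0 to 2 when a library was left out: 2 without control library 3 and 0 without RBP4 library 2. With no filter on low values, 4 nuclear copies were lowered, against 0 in the main fit, and the share of all genes was not counted. The cause of these shifts was not tested where none is named.

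The libraries share replicate numbers, and the deviations of same-numbered libraries correlated at 0.0037, -0.0079 and -0.017. Those of differently numbered libraries correlated at -0.0092 to 0.016, so no shared deviation by number was seen. Whether same-numbered libraries were prepared together is not given, and these values cannot decide it. With the replicate number as a block, 15 mitochondrial genes were raised and 7 lowered, no call of a single mitochondrial gene changed, and no other count moved by over 1.5 times. For single mitochondrial genes, 585 alternative values kept their direction and side of the threshold, 26 lost the call, 5 gained one and 4 reversed. Of the tRNA genes, 11 of 21 were too low to test, and the part of depth, poly-T capture or fragment size in this was not tested.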
